A study of Gallus gallus with 12 samples.

Results

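The fast skeletal myosin heavy chains of chicken breast muscle were described here through 6 genes, MYH1A, MYH1B, MYH1C, MYH1D, MYH1E and MYH1G. They were taken as the array rows whose platform gene symbol is exactly 1 of these 6 names, which gave 1 row per gene, 6 of 20804 rows (transcript clusters) in all. Myosin heavy chain is the motor of the thick filament: its head splits ATP and pulls on actin, and the isoform sets how fast a fibre shortens. In the chicken the fast isoforms are encoded by neighbouring genes, and in breast muscle, which is built almost wholly of fast fibres, embryonic, neonatal and adult isoforms follow one another as the bird grows. Early isoforms are also known to return in regenerating fibres. In RefSeq's gene table for the GRCg7b assembly, all 6 members were found by gene identifier and lie on a single chromosome in the order MYH1D, MYH1F, MYH1A, MYH1B, MYH1E, MYH1C and MYH1G. MYH1F is the 1 protein-coding gene within that span of 7 that is not a member, because no row carried its symbol alone.

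The RNA was that of Pectoralis major of the chest, taken at day 36 from Ross PM3, a commercial meat-type chicken. Birds ate normal feed, feed poor in phosphorus (P) and calcium (Ca), called restricted here, or the restricted feed plus phytase, an enzyme that frees phosphate from plant phytate. The sample titles label the phytase diet Phy1000 and give no unit. RNA of 4 birds was pooled on every one of the 12 Affymetrix arrays, 4 arrays to a diet. SDs below are therefore spreads of pools, and single birds were not measured. How pools were made up is not in the labels, so a p-value rests on scatter between pools, which may in part be technical. In limma, used for the diet contrasts, each row's spread was pooled over all 12 arrays and drawn toward a trend over all tested rows. A row therefore has the same SE in every contrast, and a widely scattered row can have a smaller SE than its own pools give. Whether the unadjusted calls hold on each row's own scatter alone was not tested. The number of arrays limits the precision.

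Values are deposited log2 levels, and array medians lay between 3.10 and 3.19. The 4 fast-muscle marker rows that were bright enough to be tested, ACTA1, TNNT3, TNNI2 and TNNC2, were at 11.71 or above on every array. PVALB, parvalbumin, was dim at 2.07 to 3.5, and 5 of the 10 listed markers had no row with their symbol alone. Restricted replicate 1 stood apart by the narrowest spread of values (SD 1.81 over all rows, against 1.87 to 1.92 on the other 11 arrays). The W-linked transcript HINTW was at 7.57 to 8.08 in restricted replicates 1 and 2 and phytase replicates 1 and 4, and at 2.27 to 2.76 in the other 8 pools. No normal pool was in the higher range, so the contrasts with the normal diet are partly confounded with this signal. Pool RNA cannot tell fewer fibres of a type from less RNA per fibre.

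All 6 rows passed the brightness filter for testing, a mean of at least 2.67. MYH1E gave the brightest signal of the family, at 12.19, 12.31, 12.42 and 12.51 in normal pools 1 to 4, at 12.44, 12.18, 12.25 and 12.12 in restricted pools 1 to 4, and at 12.52, 12.35, 12.39 and 12.35 in phytase pools 1 to 4. It ranked between 40 and 51 among the 20804 rows of each array. It was also the steadiest member, with a within-diet SD of 0.12, and 96.0% of tested rows varied more. Most of those rows were dimmer, and a small spread was not particular to MYH1E among bright rows. Over the 12 pools ACTA1 ran from 13.54 to 13.64, TNNC1 from 12.20 to 12.43 and TNNI2 from 11.76 to 12.08. TTN, from 11.46 to 12.01, and COL1A1, from 11.02 to 12.38, ran wider than MYH1E.

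MYH1A was at 9.84, 10.26, 9.74 and 10.48 in the normal pools, at 8.92, 9.91, 9.36 and 9.82 in the restricted pools, and at 10.19, 9.96, 10.25 and 9.74 in the phytase pools. Restricted pools 1 and 3 lay below every normal and phytase pool, while restricted pools 2 and 4 lay within their range. MYH1C was at 9.62, 9.13, 8.91 and 10.90 in the normal pools, at 7.60, 10.30, 10.71 and 9.36 in the restricted pools, and at 9.33, 11, 10.25 and 10.63 in the phytase pools. Restricted pool 1 was the lowest of all 12 for both genes. MYH1C spanned 10.6-fold between its lowest and highest pool, against 2.95-fold for MYH1A.

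MYH1D was at 8.15, 7.90, 6.33 and 7.47 in the normal pools, at 7.39, 8.47, 7.67 and 8.52 in the restricted pools, and at 7.32, 8.78, 8.20 and 9.29 in the phytase pools. MYH1G was at 6.85, 6.48, 4.79 and 6.89 in the normal pools, at 4.94, 6.61, 7.10 and 6.30 in the restricted pools, and at 5.73, 6.74, 6.63 and 9.11 in the phytase pools. MYH1B was at 6, 5.68, 4.57 and 5.08 in the normal pools, at 4.66, 5.25, 5.49 and 5.94 in the restricted pools, and at 4.66, 5.96, 5.77 and 6.79 in the phytase pools. For these 3 genes normal pool 3 was the lowest normal pool, restricted pool 1 the lowest restricted pool, phytase pool 1 the lowest phytase pool, and phytase pool 4 the highest of all 12. MYH1G had the widest range of the family, 19.97-fold. The within-diet SD was 1.14 for MYH1G, 1.04 for MYH1C, 0.75 for MYH1D, 0.70 for MYH1B and 0.36 for MYH1A, against a median of 0.24 over all tested rows. Only 0.328% of tested rows varied more than MYH1G within diets and 0.457% more than MYH1C.

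**Figure D1:**
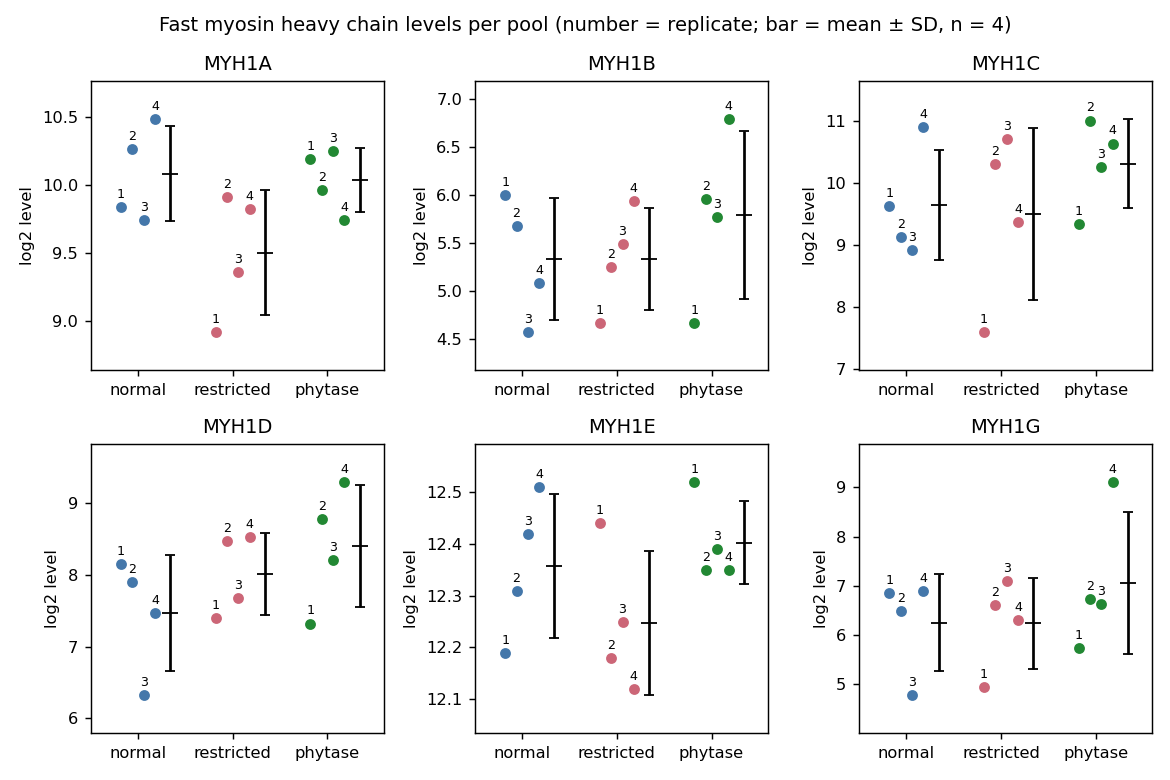
Log2 level of each fast myosin heavy chain row in each of 12 pools, by diet. Points are pools, numbered by replicate, and bars are the mean ± SD of 4 pools. Each panel has its own vertical scale, so MYH1E, which spans 0.40, fills its panel as MYH1G does with 4.32.

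By mean signal over the 12 arrays the order was MYH1E at 12.34, MYH1A at 9.87, MYH1C at 9.81, MYH1D at 7.96, MYH1G at 6.51 and MYH1B at 5.49. These rows carry different probes, so the order is one of array signal and not of transcript amount. It was nevertheless nearly fixed. MYH1E ranked 1, MYH1D 4, MYH1G 5 and MYH1B 6 among the members on all 12 arrays. MYH1A and MYH1C did not differ beyond their spread: MYH1A was the brighter on 6 arrays and the dimmer on the other 6, with a mean difference of 0.06 ± 0.89 (SD, n = 12). The levels of MYH1E lay above those of every other member in every pool, and the other neighbours in this order overlapped when pools were mixed. MYH1C exceeded MYH1D by 0.21 at least within an array, MYH1D exceeded MYH1G by 0.18 at least, and MYH1G exceeded MYH1B by 0.22 at least.

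A further row names MYH1B and MYH1F together and was not a member. It lay between 10.47 and 11.45, at 11.05 ± 0.27 in normal, 10.94 ± 0.16 in restricted and 10.93 ± 0.40 in phytase muscle (SD, n = 4). The family's coding sequences are known to be very alike, and which probes a transcript of a neighbouring gene may reach was not tested. No member row held exactly the values of another row.

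The first comparison asked whether low phosphorus and calcium changed the isoforms. None of the 6 members passed limma's test after Benjamini-Hochberg adjustment over all 12482 tested rows, where 0 rows (0%) passed. MYH1A showed the largest difference relative to its error, at 9.50 ± 0.46 in restricted against 10.08 ± 0.35 in normal pools (SD, n = 4). The restricted level was 1.49-fold lower. On the log2 scale the difference was -0.58 ± 0.21 (SE), with a 95% interval of -1.04 to -0.12 and an adjusted limma p of 0.904. It was the 1 member of 6 at an unadjusted p under 0.05, a share to read against 5.30% of all tested rows. The pools of both diets overlapped for all 6 members, where 1.16% of tested rows lay wholly higher and 1.15% wholly lower in restricted pools. Without restricted replicate 1 the MYH1A difference was -0.38, and its unadjusted call was lost in 2 of the 12 cases with 1 array left out. MYH1D differed by 0.55 ± 0.44 (SE) in the other direction, with a 95% interval of -0.38 to 1.48, which includes 0. Without normal replicate 3 it differed by 0.17. MYH1B at 0.0025 ± 0.41, MYH1C at -0.15 ± 0.59, MYH1E at -0.11 ± 0.08 and MYH1G at -0.02 ± 0.66 (differences ± SE) had intervals that included 0. Their 95% intervals reached from -0.28 to 0.06 for MYH1E but from -1.43 to 1.40 for MYH1G, so a fold of 2.63 in MYH1G would still lie within its interval. Of the 6 members 2 had a higher and 4 a lower mean with restriction, where 48.7% of all tested rows were higher and 51.0% lower. The median difference over the 6 members was -0.06, and over all tested rows -0.01.

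Erythroid transcripts had higher means in restricted muscle, not past the adjusted threshold. HBA1 and HBAD, the tested 2 of 8 listed erythroid genes, differed by 1.48 ± 0.28 and 1.67 ± 0.34 (SE) between restricted and normal muscle. With the 4 erythroid genes on the array summed on the linear scale, log2 levels ran from 7.78 to 8.10 in normal, from 8.97 to 10.6 in restricted and from 7.74 to 8.92 in phytase pools. With diet means removed MYH1A had r = 0.0326 with HBA1 and -0.106 with HBAD over 12 pools, as a description. The 3 tested of 7 listed adipocyte genes were also higher in restricted than in normal muscle (PLIN1, which coats lipid droplets, by 0.75 ± 0.19 SE) and lower with phytase than with restriction (PLIN1 -0.50 ± 0.19 SE). None passed the adjusted threshold. The summed level of the 4 adipocyte genes on the array ran from 7.61 to 8.40 in normal, 8.19 to 8.57 in restricted and 7.80 to 8.30 in phytase pools (log2). All 5 tested fibroblast genes had a higher mean in restricted than in normal muscle (median difference 0.25), and 2 of 5 a higher mean with phytase than with restriction. Of all tested rows 48.7% and 48.4% were higher in these contrasts. The median r with MYH1A was 0.471 for the adipocyte genes and 0.315 for the fibroblast genes. The part of these cells in the MYH1A differences was not tested.

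Phytase added to the restricted diet was compared with the restricted diet alone. All 6 members had a higher mean with phytase, where 48.4% of all tested rows did and 51.3% were lower, and the median difference was 0.50 against -0.01 over all tested rows. The brighter row that names MYH1B and MYH1F together is not among the 6. It was at 10.93 with phytase and 10.94 with restriction. Some members vary together across pools, as described below, so 6 higher values are not 6 separate observations. None passed limma's test after adjustment, as for all rows (0 of 12482, 0%), and the pools of both diets overlapped for every member, where 1.64% of rows lay wholly higher and 2.03% wholly lower. MYH1A was at 10.04 ± 0.23 with phytase against 9.50 ± 0.46 (SD, n = 4), a 1.45-fold difference. On the log2 scale it was 0.53 ± 0.21 (SE), with a 95% interval of 0.07 to 0.99 and an adjusted limma p of 0.523. It was again the 1 member of 6 at an unadjusted p under 0.05, against 8.83% of all tested rows. Without restricted replicate 1 its difference was 0.34, and its unadjusted call was lost in 4 of the 12 cases with 1 array left out. The restricted pools enter both contrasts, so the lower MYH1A with restriction and the higher MYH1A with phytase are not independent.

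The other members differed between phytase and restricted muscle by 0.81 ± 0.59 for MYH1C, 0.82 ± 0.66 for MYH1G, 0.46 ± 0.41 for MYH1B, 0.39 ± 0.44 for MYH1D and 0.16 ± 0.08 for MYH1E (differences ± SE). Single pools carried much of this: the MYH1C difference was 0.18 without restricted replicate 1 and 1.22 without restricted replicate 3. Leaving out phytase replicate 4 gave 0.13 for MYH1G, 0.13 for MYH1B and 0.09 for MYH1D. Without phytase replicate 1 the same 3 differences were 1.26, 0.84 and 0.74.

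Phytase and normal muscle were compared for the net difference of restriction with the enzyme from normal feed. MYH1D was at 8.40 ± 0.85 with phytase and 7.46 ± 0.81 on the normal diet (SD, n = 4), a 1.91-fold difference. On the log2 scale it was 0.94 ± 0.44 (SE), with a 95% interval of 0.0014 to 1.87 and an adjusted limma p of 0.984. It was the 1 member of 6 at an unadjusted p under 0.05, against 4.32% of all tested rows, and no row passed after adjustment (0 of 12482, 0%). Pools overlapped for all 6 members, where 1.54% of rows lay wholly higher and 1.51% wholly lower with phytase. The MYH1D difference was 0.56 without normal replicate 3. Its unadjusted call was lost in 6 of the 10 other settings that kept all arrays and in 8 of the 12 cases with 1 array left out. In all, 5 of 6 members were higher and 1 lower, where 49.8% of rows were higher and 50.0% lower. MYH1A was at similar means on these diets, with a difference of -0.05 ± 0.21 (SE) and a 95% interval from -0.50 to 0.41. MYH1E differed by 0.05 ± 0.08, MYH1B by 0.46 ± 0.41, MYH1C by 0.66 ± 0.59 and MYH1G by 0.80 ± 0.66 (differences ± SE). Without phytase replicate 4 the difference was 0.11 for MYH1G and 0.13 for MYH1B, and without phytase replicate 1 it was 1.24 and 0.84. The MYH1C difference ran from 0.42 without normal replicate 3 to 1.08 without normal replicate 4. Across the 3 diets the F test gave MYH1A an adjusted p of 0.7997 in limma. Of all tested rows 5.97% had an unadjusted p under 0.05 in the F test and 0 of 12482 passed after adjustment (0%).

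**Figure D2:**
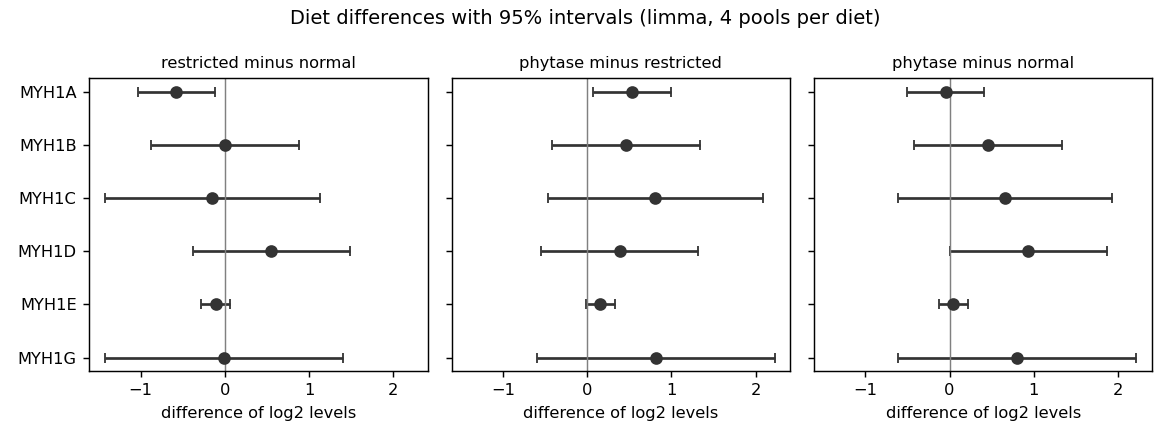
Difference of mean log2 levels between diets for each member, with 95% intervals from limma, for the 3 contrasts. The intervals of MYH1E are the narrowest and those of MYH1G the widest, and the intervals that leave out 0 are those of MYH1A in the first and second contrast and, barely, MYH1D in the third.

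Whether the balance between isoforms moved with diet was asked within arrays, by the MYH1E level minus that of each other member, which an array-wide shift cannot move. Over the 15 comparisons (5 members in 3 contrasts) the differences ran from -0.89 to 0.47. Exact two-sided permutation tests of 4 against 4 arrays gave p from 0.229 to 0.971 (0.818 to 0.971 adjusted over the 15), where the smallest p the 70 arrangements allow is 0.0286. MYH1E exceeded MYH1A by 2.28 ± 0.31 in normal, 2.75 ± 0.59 in restricted and 2.37 ± 0.19 in phytase muscle (SD, n = 4). It exceeded MYH1D by 4.90 ± 0.90, 4.24 ± 0.70 and 4.01 ± 0.92 in the same order. No shift of balance between MYH1E and another member was detectable with 4 pools per diet.

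Because 4 of the members varied widely between pools of a diet, the members were also compared across pools after the mean of each diet was subtracted. Of the 15 pairs, 6 were correlated at an adjusted permutation p under 0.05 (100000 permutations within diets, two-sided, Benjamini-Hochberg over the 15 pairs). The share of other row pairs that this test would call is not reported here, so the count has no background beside it. How the r values stand among all tested rows is given below. The rows of MYH1B, MYH1D and MYH1G were positively correlated with one another, though they did not move together in every pool. In restricted replicate 3 the deviation from the diet mean was 0.155 for MYH1B, -0.34 for MYH1D and 0.86 for MYH1G. The brighter row that names MYH1B and MYH1F together ran the other way, as a description with no test. Its r was -0.530 with the MYH1B row, -0.494 with MYH1D and -0.574 with MYH1G. The MYH1B and MYH1D rows were the closest pair, with r = 0.911 (permutation p = 0.00079, adjusted p = 0.0118) and rho = 0.881 (adjusted permutation p = 0.0320). MYH1B and MYH1G had r = 0.830 (adjusted permutation p = 0.0285) and rho = 0.650 (adjusted permutation p = 0.132). MYH1D and MYH1G had r = 0.791 (adjusted permutation p = 0.0285) and rho = 0.678 (adjusted permutation p = 0.115). MYH1C joined this set through MYH1G, with r = 0.685 (adjusted permutation p = 0.0370) and rho = 0.769 (adjusted permutation p = 0.0376). Its r was 0.448 with MYH1B and 0.469 with MYH1D, neither past the threshold (adjusted permutation p = 0.232 for each).

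MYH1E ran the other way. It was lower in the pools where MYH1B was higher (r = -0.794, adjusted permutation p = 0.0265, and rho = -0.778, adjusted permutation p = 0.0320) and where MYH1D was higher (r = -0.742, adjusted permutation p = 0.0285, and rho = -0.823, adjusted permutation p = 0.0320). In restricted replicate 1, for example, the deviation from the diet mean was -0.68 for MYH1B, -0.62 for MYH1D, -1.30 for MYH1G and -1.89 for MYH1C, and 0.19 for MYH1E. Phytase replicate 1 had the same pattern, with 4 of the 6 members at their diet's lowest and MYH1E at its highest. In phytase replicate 4 it was 2.06 for MYH1G, 0.995 for MYH1B, 0.89 for MYH1D and -0.05 for MYH1E. MYH1E moved little on this scale, with deviations from -0.17 to 0.19 over the 12 pools. MYH1A was not correlated past the threshold with any other member, with r from -0.188 with MYH1E to 0.470 with MYH1C, and the latter was -0.0130 without the 2 pools farthest from the median.

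Without the 2 pools farthest from the median of the first gene, r was 0.854 for MYH1B with MYH1D, 0.697 for MYH1B with MYH1G, 0.620 for MYH1D with MYH1G, 0.611 for MYH1C with MYH1G, -0.852 for MYH1B with MYH1E and -0.763 for MYH1D with MYH1E. Leaving out any 1 pool kept the sign of all 6, with r from 0.870 to 0.950 for MYH1B with MYH1D. The adjusted p, however, rose past 0.05 in 3 of 12 such cases for MYH1B with MYH1D, in 4 for MYH1B with MYH1E, and in 8 or 9 for the other 4 pairs. When diet means were not removed, the 2 pairs with MYH1E fell to r = -0.509 and -0.495 (adjusted permutation p = 0.186 for each). The pairs share arrays and normalization. As background, over all 12481 other tested rows the median r with MYH1B was 0.0164 and 1% of rows exceeded 0.806. MYH1D ranked 13 and MYH1G 87 among those rows for likeness to MYH1B, and MYH1E ranked 12369. The r that 1% of rows exceeded was 0.839 for MYH1D, 0.767 for MYH1C and 0.762 for MYH1G. The r of MYH1C with MYH1G (0.685) lay below the limits of both genes, and MYH1G ranked 357 for likeness to MYH1C. The r of MYH1D with MYH1G (0.791) lay below the limit of MYH1D and above that of MYH1G. For likeness to MYH1D, MYH1G ranked 251 and MYH1E 12219.

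**Figure D3:**
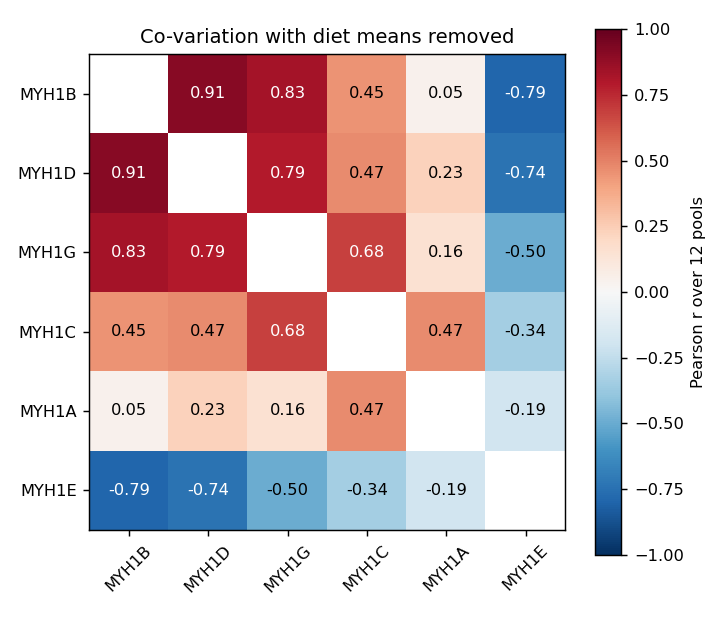
Pearson r between members over 12 pools after each diet's mean was removed. The block of MYH1B, MYH1D and MYH1G has r from 0.791 to 0.911, and the MYH1E row and column are negative throughout.

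**Figure D4:**
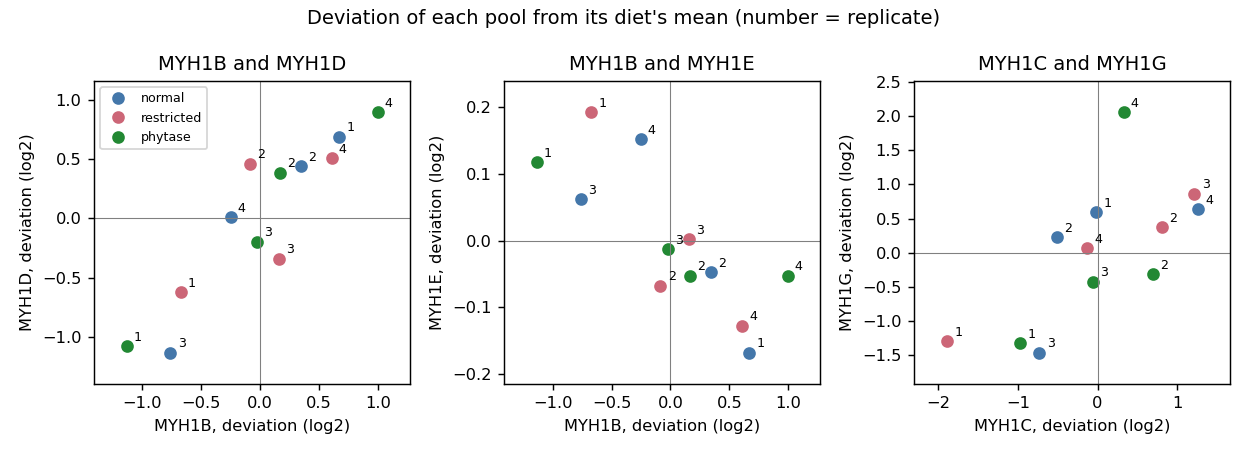
Deviation of each pool from its diet's mean (log2) for 3 pairs of members, with pools coloured by diet and numbered by replicate. Normal pool 3, restricted pool 1 and phytase pool 1 sit at the low end of MYH1B, MYH1D, MYH1C and MYH1G, and above 0 for MYH1E.

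Genes of other parts of the sarcomere were set beside the members by the same measure, as a description of 12 pools with no test. Among 10 tested genes of slow-fibre proteins the median r was 0.664 with MYH1B, 0.587 with MYH1D, 0.591 with MYH1G and -0.489 with MYH1E, against medians of 0.0164, 0.0258, 0.0164 and -0.0179 over all tested rows. With MYH1D all 10 were above 0, and with MYH1E all 10 were below 0. The median was 0.449 with MYH1C, with 9 of 10 above 0, and 0.210 with MYH1A. The slow-fibre list also holds the stretch-response genes ANKRD1, ANKRD2 and CSRP3. Its MYL2 row was dim, at 2.52 to 2.89. Its TNNC1 and CASQ2 rows were bright and nearly flat in this fast muscle, at 12.20 to 12.43 and 11.61 to 11.82. The list is therefore not a measure of slow fibres alone. CSRP3, the muscle LIM protein of the Z-disc, had r = 0.890 with MYH1B and 0.946 with MYH1G. TNNI1, slow skeletal troponin I, had r = 0.870 with MYH1D. These and the other genes named here for their r were picked as the extremes of their lists after the values were seen.

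The fast thin filament list had medians of the opposite sign with MYH1B, MYH1D, MYH1G and MYH1E, but not with MYH1A and MYH1C. All 7 tested genes had r below 0 with MYH1B and with MYH1D (medians -0.557 and -0.649), and 6 of 7 had r above 0 with MYH1E (median 0.580). With MYH1G 6 of 7 were below 0 (median -0.352), while the medians with MYH1A and MYH1C were 0.0417 and 0.0199. TPM1, a tropomyosin, had r = -0.821 with MYH1D, TNNT3, fast troponin T, had r = -0.800 with MYH1B, and TNNI2, fast troponin I, had r = 0.817 with MYH1E. Like MYH1E, these rows were bright and nearly flat, with TNNI2 between 11.76 and 12.08. MYH15, a sarcomeric heavy chain known from chicken ventricle, had r = 0.832 with MYH1B, 0.839 with MYH1D, 0.724 with MYH1G and -0.722 with MYH1E. It was dim, at 3.66 ± 0.59 in normal, 4.12 ± 0.94 in restricted and 4.66 ± 1.10 in phytase muscle (SD, n = 4). MYH7, the slow and cardiac heavy chain, showed no such relation, with r from -0.364 to 0.0895 over the 6 members. Its row was dim as well and nearly flat, between 3.64 and 4.22, which limits what its r can show.

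In the thick filament list MYBPC1, slow myosin-binding protein C, tracked MYH1C (r = 0.902), and MYOM3, a myomesin of the M-band, tracked MYH1B (r = 0.882). MYOM1 went against MYH1D (r = -0.715). Across that list of 8 the medians with MYH1B, MYH1D and MYH1G were 0.0290, 0.00346 and 0.0128. Of 13 tested myosin folding and assembly factors, 11 had r above 0 with MYH1A. The median was 0.399, against 0.0590 over all tested rows. The highest was CCT6A, a subunit of the chaperonin that folds actin (r = 0.720). CCT2, CCT4, CCT5 and CCT8 had r from 0.399 to 0.594, and TCP1, a subunit as well, had 0.316. Subunits of 1 complex may vary together, so the 11 are not separate observations. UNC45A had r = 0.172 with MYH1A, UNC45B 0.155, SMYD2 -0.216 and SMYD1 -0.299. UNC45B, the myosin chaperone of striated muscle, had r = 0.679 with MYH1E, with which 6 of the 13 factors were above 0 (median -0.0218). Of 15 tested transcription factors of fibre type, SRF had r = 0.824 and MEF2D -0.835 with MYH1E. MYOG, myogenin, had r = 0.710 with MYH1B. In that list of 15, 8 were above 0 with MYH1B (median 0.0371) and 4 with MYH1E (median -0.136).

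Markers of connective tissue were set beside the members in the same way. All 5 tested of 7 listed fibroblast genes had r above 0 with MYH1B (median 0.628) and MYH1D (median 0.755) and below 0 with MYH1E (median -0.731). They were also above 0 with MYH1C (median 0.464), MYH1G (median 0.396) and MYH1A (median 0.315). FN1, fibronectin, had r = 0.860 with MYH1D, and PDGFRA, a receptor of fibroblast-like progenitors, had r = -0.836 with MYH1E. Summed on the linear scale, the 5 genes ran from 11.6 to 12.7 in normal, 12.2 to 13.1 in restricted and 12.1 to 12.8 in phytase pools (log2). CD74, of antigen presentation, had r = 0.878 with MYH1D and -0.841 with MYH1E. PTPRC, of the same list, had r = 0.530 with MYH1D and -0.729 with MYH1E. The 7 tested vessel, smooth muscle and macrophage genes had a median r of -0.168 with MYH1D and 0.00346 with MYH1E. Of these 7 genes, 3 were above 0 with MYH1D and 3 below 0 with MYH1E. The part of these cells in the co-variation was not tested.

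**Figure D5:**
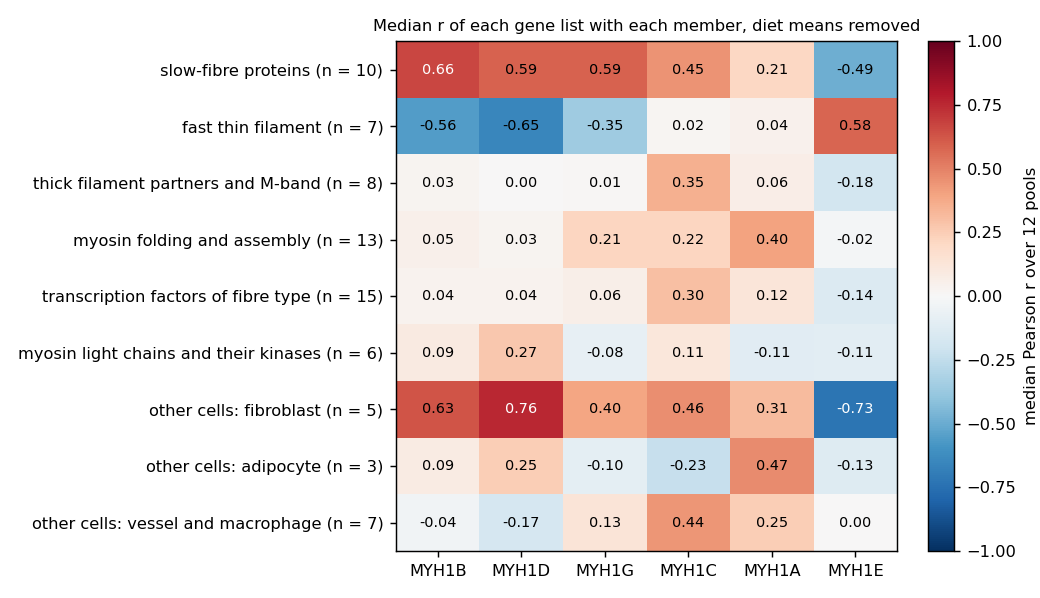
Median Pearson r over 12 pools, diet means removed, between the tested genes of each list (rows, n genes) and each member (columns). Slow-fibre and fibroblast lists are positive with every member except MYH1E, with which they are negative. The fast thin filament list is negative with MYH1B, MYH1D and MYH1G, near 0 with MYH1A and MYH1C, and positive with MYH1E.

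Over all tested rows with 1 symbol, the 3 genes most like each member over 12 pools were taken. For MYH1G they were CSRP3 at r = 0.946, IMPG2, a proteoglycan whose row was dim (2.09 to 3.68), at 0.914, and LDHB, the heart-type lactate dehydrogenase, at 0.910. MYH1C was followed by CA3A, a carbonic anhydrase by its symbol, at 0.936, SKA2P1, dim as well (2.74 to 3.47), at 0.907 and MYBPC1 at 0.902. CA3A spanned 5.50 to 9.71. The MYH1D row was most like ZYX, zyxin of focal adhesions, at 0.971, TNFSF10, a death ligand, at 0.964 and TOM1, of endosomal sorting, at 0.958. MYH1B was most like HEPH, a copper ferroxidase, at 0.961, RCSD1, which binds the actin-capping protein, at 0.946 and CTSH, cathepsin H, at 0.943. MYH1A was most like OGT, the O-GlcNAc transferase, at 0.922, GABARAPL1, of autophagosomes, at 0.916 and AKR1A1, an aldehyde reductase, at 0.916. MYH1E was most like CLN6 at 0.921, COPS4, of the signalosome, at 0.914 and ACYP2, an acylphosphatase, at 0.909. Values this high are the top of 12481 rows and carry no test. Without removal of diet means r was 0.389 for MYH1A with OGT, 0.279 for MYH1A with AKR1A1 and 0.360 for MYH1E with CLN6.

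In the lists of partner genes 0 genes passed limma's test after adjustment in any contrast, so values are given with no verb of change. Of all tested rows 51.0% were lower in restricted than in normal muscle. With phytase 48.4% were higher than with restriction and 49.8% higher than with the normal diet. Genes of a list may vary together across pools, so the counts below are not counts of separate observations. Of 8 thick filament and M-band genes, 6 were lower in restricted than in normal muscle and 7 higher with phytase than with restriction alone (median difference 0.37, against -0.01 over all tested rows). TTN, titin, differed by 0.34 ± 0.09 (SE) and MYOM2, a myomesin, by 0.41 ± 0.13 (SE) in the latter contrast. All 10 genes of the slow-fibre list were higher with phytase than with restriction alone (median 0.25), and 8 of 10 were lower in restricted than in normal muscle. The differences with phytase ran from 0.03 ± 0.06 for TNNC1 to 0.85 ± 0.37 for CSRP3 (SE), with ANKRD1 at 0.64 ± 0.26 (SE). ANKRD1 and CSRP3 are stretch-response genes, so these values do not describe slow-fibre proteins alone. The difference was 0.40 for ANKRD1 without restricted replicate 1 and 0.44 for CSRP3 without phytase replicate 4. Of 7 fast thin filament genes, 3 were higher and 4 lower with phytase than with restriction, with ACTN2, alpha-actinin, at 0.54 ± 0.20 and TMOD4, which caps thin filaments, at -0.33 ± 0.11 (SE).

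Myosin folding and assembly genes were lower in restricted than in normal muscle for 12 of 13 (median -0.11, against -0.01), and SMYD2 and HSP90AB1 differed by -0.17 ± 0.14 and 0.13 ± 0.13 (SE). Of 15 transcription factors of fibre type, 11 were higher with phytase than with restriction and 12 higher than with the normal diet. MEF2C, a myocyte enhancer factor, differed by 0.49 ± 0.18 and PPARGC1A, a co-activator of mitochondrial genes, by 0.34 ± 0.15 (SE) against restriction. Among 6 myosin light chains and their kinases, MYLK2, the skeletal light chain kinase, was at 0.33 ± 0.12 (SE) between restricted and normal muscle and at -0.44 ± 0.12 (SE) between phytase and restricted muscle, and MYLK was at 0.03 ± 0.16 and 0.24 ± 0.16 (SE). Of the non-muscle and smooth muscle heavy chains, MYH11 differed by 0.74 ± 0.29 and MYH10 by 0.21 ± 0.18 (SE) between phytase and restricted muscle. MYH15 differed by 0.54 ± 0.53 and MYH7 by -0.09 ± 0.15 (SE) in that contrast. With 1 array left out MYH15 ran from 0.11 to 0.89 and MYH10 from 0.0733 to 0.31, the lowest without restricted replicates 1 and 2 in that order.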

How the data were processed

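Expression was measured on 12 Affymetrix arrays, 1 per pool of 4 birds. The deposited values are log2 levels, 1 per transcript cluster and array. Affymetrix Expression Console and GCRMA are named in the submitters' processing notes; their versions and the build are not given in the sources used here. No label states the base of the logarithm; base 2 was inferred, since values span 0.83 to 14.36. Near-identical genes may share probe targets.

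Groups came from sample titles. Gene names came from the platform annotation (12300 rows with 1 symbol, 256 with several, 8248 with none). The 12482 rows whose mean reached percentile 40 of all row means entered limma 3.58.1 (R 4.3.3), with 1 mean per diet, an intensity trend and Benjamini-Hochberg adjustment over all tested rows. Correlations used diet-centred values and 100000 permutations within diets, and were computed in Python with numpy 2.4.6 and scipy 1.17.1. Both procedures were tested on simulated data. Other genes named from the lists are the 2 with the smallest F test p in each list, 1 row per gene, the erythroid genes and HINTW, and, for likeness, the 3 rows with 1 symbol and the highest r per member. Genes named for their r with a member were chosen after their values were seen. The members, lists and tests were chosen with earlier results of these data known. Alternatives were leaving out each array, a HINTW covariate, copies counted once, other filters and scalings, no intensity trend, array weights, an added offset of 16 and a replicate block.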

Additional observations from a re-analysis of the deposited data

Results flagged for a closer look

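In groups of 4 pools, a pool was singled out when its gap to the nearest other pool passed the 95% critical value of Dixon's test, a share of the group's range. Of 135 groups examined over the members and the other named genes, 7 were singled out, and chance alone singles out about 1 in 20. None of them was a member of the family or the row shared by MYH1B and MYH1F. Normal replicate 1 was high in MYH7 at 4.22, against 3.71 in the next pool, and in HINTW at 2.70, against 2.35. Normal replicate 2 was low in TTN at 11.58, against 11.77, and normal replicate 3 was low in ZYX at 4.28, against 5.25. Restricted replicate 1 was low in LDHB at 5.32, against 6.27. Phytase replicate 4 was low in ANKRD1 at 9.78, against 10.44, and in GABARAPL1 at 3.35, against 3.56.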

How the results depend on the processing

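The counts of 0 rows past the adjusted threshold stayed 0 under all alternatives run, including the replicate block. Same-numbered pools deviated together in 3 of 12 pairs (r over 0.1, range -0.162 to 0.178), so the numbers are not taken as a pairing; with the block 623, 1072, 518 and 722 rows had an unadjusted p under 0.05 in the 3 contrasts and the F test, against 662, 1102, 539 and 745. With no filter all 20804 rows were tested in place of 12482. The counts were then 1040 between restricted and normal and 882 between phytase and normal. Over the 12482 rows the count between phytase and normal was 895 with array weights and 1029 with a HINTW covariate. With 1 array left out the counts of the 3 contrasts and the F test ran from 445 to 1074, 698 to 1728, 333 to 690 and 500 to 1239. No member passed limma's adjusted threshold under any alternative (lowest adjusted p = 0.295). Differences near 0 changed sign. Between restricted and normal muscle MYH1B was at -0.0173 after quantile normalization, -0.0125 with median centring and -0.00457 with the offset, MYH1C at 0.0348 and MYH1G at 0.0138 with array weights, and MYH1C at 0.31, MYH1G at 0.0442, MYH7 at -0.0180 and MYH11 at 0.0641 with the HINTW covariate. With that covariate MYH1A was at 0.0442 and MYH1E at -0.00192 between phytase and normal muscle. With array weights TNNT3 was at 0.000978 between phytase and restricted muscle. The unadjusted call of MYH1D between phytase and normal muscle was lost with no filter, the stricter filter, quantile normalization, no intensity trend, array weights and the HINTW covariate. That of MYH1A was lost with the HINTW covariate between restricted and normal muscle and with array weights between phytase and restricted muscle. The cause of these changes was not tested.

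With 1 array left out, differences between restricted and normal muscle ran from -0.25 to 0.23 for MYH1B, -0.55 to 0.48 for MYH1C, -0.50 to 0.42 for MYH1G, -0.0183 to 0.17 for MYH7, -0.27 to 0.16 for MYH11, -0.0258 to 0.10 for MYLK, -0.0233 to 0.14 for PPARGC1A and -0.0608 to 0.0258 for TNNT3. Between phytase and restricted muscle TNNT3 ran from -0.0683 to 0.0183 and HINTW from -1.20 to 0.74. Between phytase and normal muscle MYH1A ran from -0.16 to 0.0883, MYH1E from -0.0108 to 0.0958, MYH7 from -0.11 to 0.0817 and CSRP3 from -0.23 to 0.49. MYH1E minus another member, between restricted and normal muscle, ran from -0.40 to 0.16 for MYH1B, -0.66 to 0.44 for MYH1C and -0.59 to 0.41 for MYH1G. Between phytase and restricted muscle it ran from -0.72 to 0.0442 for MYH1B, -1.06 to 0.04 for MYH1C, -0.63 to 0.085 for MYH1D and -1.14 to 0.0433 for MYH1G.

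Of the co-variation results, MYH1A with MYH1E was at r = 0.194 with diet means kept. MYH1C with MYH1G was at 0.665 (adjusted permutation p = 0.0558) and MYH1D with MYH1E at -0.613 (adjusted permutation p = 0.138) after quantile normalization. With diet means kept MYH1B with MYH1E was at -0.509 and MYH1D with MYH1E at -0.495. With 1 array left out r ran from -0.260 to 0.277 for MYH1A with MYH1B, -0.497 to 0.308 for MYH1A with MYH1E, -0.167 to 0.548 for MYH1A with MYH1G and -0.733 to 0.145 for MYH1C with MYH1E. Among the 6 called pairs it ran from 0.870 to 0.950 for MYH1B with MYH1D, -0.853 to -0.759 for MYH1B with MYH1E, 0.745 to 0.889 for MYH1B with MYH1G, 0.591 to 0.838 for MYH1C with MYH1G, -0.848 to -0.694 for MYH1D with MYH1E and 0.713 to 0.894 for MYH1D with MYH1G. The call was lost without normal replicate 1 or 2 or phytase replicate 1 in all 6 pairs, for MYH1B with MYH1D at r from 0.870 to 0.908 and an adjusted permutation p from 0.0538 to 0.0579. Without restricted replicate 1 it was lost in 5 pairs, and an adjusted p as high as 0.204 was reached for MYH1D with MYH1G without normal replicate 3. With other single pools left out, the adjusted permutation p for MYH1B with MYH1D was as low as 0.0054. The cause of the lost calls was not tested. Detection flags per row were not used here, so signal over background is unknown for dim rows such as IMPG2 (2.09 to 3.68), SKA2P1, MYLK, MYH7, PVALB and MYH13.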

Other observations

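The levels of some rows from the gene lists are given here, chosen after their values were seen. TNNC1 and CASQ2 are among the tested slow-fibre genes described above. TNNC1, the slow and cardiac troponin C, lay between 12.20 and 12.43 and CASQ2, the cardiac calsequestrin, between 11.61 and 11.82 in all 12 pools of this fast muscle. MYH13, another sarcomeric heavy chain, lay between 1.51 and 2 and MYL3, a slow light chain, between 1.61 and 3.29, with means under the brightness limit of 2.67.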
